A study of Mus musculus with 24 samples.

Results

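The distal and the proximal end of the upper jaw, the maxilla, were compared in control mouse embryos at E13.5. The comparison set the 3 arrays labelled control maxilla distal against the 3 labelled control maxilla proximal, which were 6 of the 24 arrays of the study, over every gene measured. The study profiled both jaws of Wnt1cre;Tgfbr2fl/fl mutants, in which Cre driven by Wnt1 removes the receptor gene Tgfbr2 from neural crest cells, and of control littermates of the C57B6 background, in 8 groups of 3 arrays. The embryos came from Wnt1cre;Tgfbr2fl/+ animals crossed with Tgfbr2fl/fl animals, so controls may carry floxed alleles, and the labels do not say which controls carry Cre. Mutants were told from controls by their cleft palate and calvarial defect. The labels do not say whether tissue of several embryos was pooled or whether numbered replicates came from separate embryos, so the p-values below rest on the variation among these arrays, part of which may be technical. Where the cut between the ends was placed is also not stated.

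The maxilla forms from a process of the first pharyngeal arch filled with neural crest mesenchyme and covered by epithelium. That epithelium gives rise to facial skin, whisker follicles, the lining of the mouth and the upper tooth buds. The maxillary branch of the trigeminal nerve enters the process from behind, where the trigeminal ganglion holds the cell bodies of its sensory neurons, and cartilage of the nasal capsule and cranial base condenses nearby at this stage.

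The label maxilla was checked against marker genes. The neural crest mesenchyme genes Prrx1 and Twist1 had mean log2 levels of 13.43 and 12.17 over the 6 arrays, and Lhx8, which is expressed in maxillary and mandibular mesenchyme, had 10.99. Hand2, a determinant of the lower jaw, had a mean log2 level of 8.02 here and of 12.36 in the 6 control mandible arrays. Within the proximal maxilla Hand2 varied, at 9.16, 6.99 and 7.54. Replicates of an end correlated with Pearson r between 0.9909 and 0.9951, and the difference between 3' and 5' Gapdh probe sets, a sign of RNA quality, was 0.05, 0.11 and 0.09 distally and 0.01, 0.09 and 0.02 proximally. Replicate 1 carried Y-linked transcripts at both ends, with Eif2s3y at 10.37 distally and 10.52 proximally, whereas replicates 2 and 3 had Eif2s3y between 3.41 and 4.01 and Xist between 13.53 and 13.72. The ends were thus alike in sex-linked transcripts. Tgfbr2 itself was level between the ends, at 12.05, 12.09 and 12.20 distally and 12.04, 12.12 and 12.14 proximally (log2 difference 0.02, SE 0.109, adjusted p = 0.99). In the mutant maxilla the same probe set read 12.20 to 12.68, not below the controls. The position of this probe set relative to the floxed exon is not known here, so it does not check the genotype labels.

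All values are deposited log2 signals, and each log2 difference is the mean of the 3 distal arrays minus that of the 3 proximal arrays, so that positive values mean higher at the distal end. A gene was called when its Benjamini-Hochberg adjusted p in limma was under 0.05. Of 13850 genes tested, 839 were called (6.06%). There were 467 genes higher at the distal end (3.37%) and 372 higher at the proximal end (2.69%). The proximal differences included the larger ones. Among distal genes the median difference was 0.739, 5 genes passed 4-fold and the maximum was 2.63, whereas among proximal genes the median size was 0.853, 49 genes passed 4-fold and the maximum was 5.12. The 3 arrays of one end did not overlap the 3 of the other for 4746 genes (34.3%), including 464 of the 467 distal and all 372 proximal calls. The genes named below for the largest differences were picked among called genes without overlap. Where lack of overlap is mentioned for a called gene, it describes the values and is not separate support for the call.

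The count depended on the model and on single arrays. Deviations of equally numbered arrays of the ends from their group means correlated at 0.572, 0.238 and 0.221. Distal array 3 and proximal array 2 also correlated at 0.2, so numbers 2 and 3 were barely told apart. With the replicate number as a block the count was 2147 (1183 distal, 964 proximal), which held 833 of the 839 genes, all with the same sign. Adjusted p values below are from the fit without that block unless stated. Leaving out distal replicate 1 or 2 gave 549 or 444 calls, and leaving out proximal replicate 1 or 3 gave 485 or 447. When each of the 6 arrays was left out in turn, 366 of the 839 genes passed every time and 55 passed in none.

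**Figure D1:**
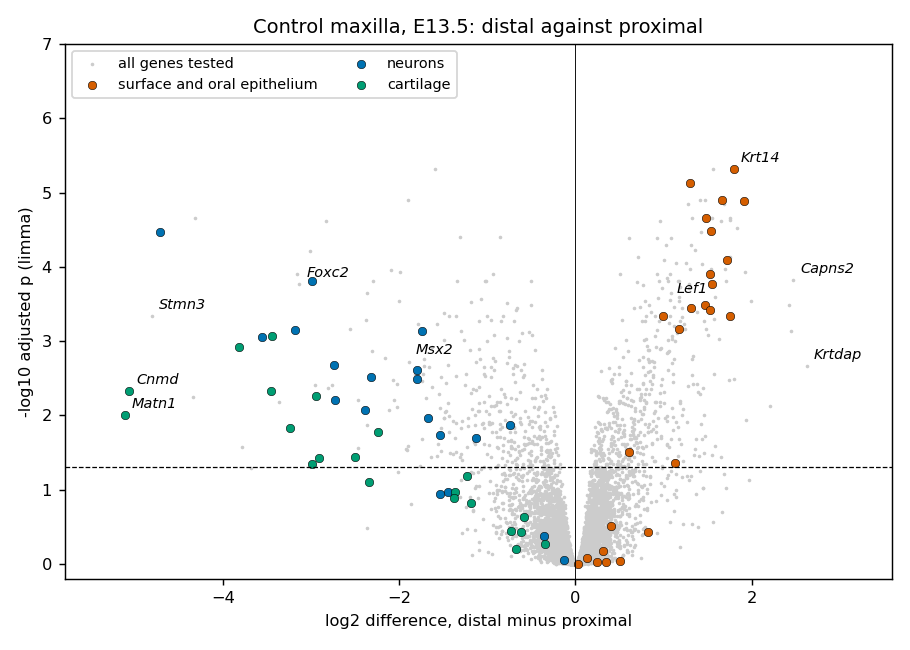
Log2 difference (distal minus proximal, x axis) against -log10 of limma's adjusted p (y axis) for 13850 genes in the control maxilla, with the dashed line at an adjusted p of 0.05. Called epithelial genes lie on the distal side, and called neuronal and cartilage genes on the proximal side, where differences reach 5.12.

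Genes of the surface and oral epithelium were higher at the distal end. Of 25 genes of this list that were tested, 17 were called and all 17 were higher distally, with a list median of 1.304 beside 0.013 over all genes tested. Keratin 5 and keratin 14 form the intermediate filaments of the basal epithelial layer. Krt5 measured 12.36, 12.34 and 12.01 distally and 10.18, 10.62 and 10.14 proximally. Krt14 measured 12.14, 12.20 and 11.81 distally and 10.15, 10.53 and 10.08 proximally. All distal arrays lay above all proximal arrays for both genes. The log2 difference was 1.92 for Krt5 (SE 0.195, adjusted p = 1.29e-05, 3.78-fold) and 1.80 for Krt14 (SE 0.16, adjusted p = 4.88e-06, 3.47-fold).

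Other members of the list were called in the same direction. Perp, a desmosomal membrane protein induced by p63, measured 12.21, 12.05 and 11.95 distally and 10.48, 10.56 and 10.02 proximally, with no overlap (log2 difference 1.72, adjusted p = 8.1e-05). The desmosomal cadherin Dsc3 was higher distally by 1.75 and the splicing regulator Esrp2, which sets epithelial transcript forms, by 1.66. When all probe sets of a gene were averaged, Dsc3 differed by 0.93 and Esrp2 by 1.04, both still called. Grhl3, a grainyhead-like transcription factor of the forming epidermal barrier, was higher distally by 1.55 (adjusted p = 0.000169). The 8 members that did not pass included the simple-epithelium keratins Krt8 and Krt18, with differences of 0.03 and 0.25. In dissected tissue, fewer cells of a type and less RNA per cell cannot be told apart. Over all 25 genes the summed signal was 15.30 to 15.53 on the log2 scale distally and 13.89 to 14.13 proximally.

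The genes with the largest distal differences were Krtdap, Capns2, Krt1 and Dmkn. Krtdap, a secreted protein of differentiating keratinocytes, measured 9.58, 9.55 and 9.0 distally and 6.21, 7.07 and 6.97 proximally, a log2 difference of 2.63 (SE 0.483, adjusted p = 0.00216, 6.17-fold). Krt1, the keratin of the first layer above the basal one, measured 11.20, 10.18 and 9.11 distally and 7.69, 7.82 and 7.63 proximally, a log2 difference of 2.45 (SE 0.399, adjusted p = 0.000726). The distal arrays of Krt1 were spread over more than 2 log2 units, with replicate 1 highest and replicate 3 lowest, yet the lowest lay above every proximal array. Dermokine, Dmkn, had the same order of distal arrays, at 8.60, 8.26 and 7.31, and was higher distally by 2.43.

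Other genes among the 15 largest distal differences are described one by one, and no list of such genes was counted. Capns2, a calpain small subunit, was higher distally by 2.47, the desmosomal cadherin Dsg1a by 2.21 and the thioesterase Them5 by 2.00 (0.84 with its probe sets averaged, adjusted p = 0.00137). Plakophilin 1, Pkp1, which anchors desmosomes to keratin, was higher by 1.83, the gap junction gene Gjb6 by 1.80 and Col17a1, a collagen of hemidesmosomes, by 1.76. Cers3, which makes ceramides of the skin barrier, and Ripk4, a kinase needed for epidermal differentiation, both differed by 1.75. Grhl1, a regulator of desmosomal cadherins, differed by 1.93. Pax3, a transcription factor of neural crest and muscle precursors, was also among the 15, with 10.31, 9.50 and 8.56 distally against 7.63, 7.86 and 7.06 proximally (log2 difference 1.94, adjusted p = 0.0117). Leaving out both arrays of replicate 1 ended the call of Krtdap (adjusted p = 0.0645), and leaving out both of replicate 3 that of Gjb6 (0.0832). Dsg1a and Pax3 lost theirs without both arrays of replicate 1 or 2 (up to 0.129 and 0.167). Single-array omissions ended the calls of 2 of these genes. Pax3 had an adjusted p of 0.0822 without distal replicate 1 and 0.075 without proximal replicate 3, and Dsg1a had 0.0543 without distal replicate 1.

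**Figure D2:**
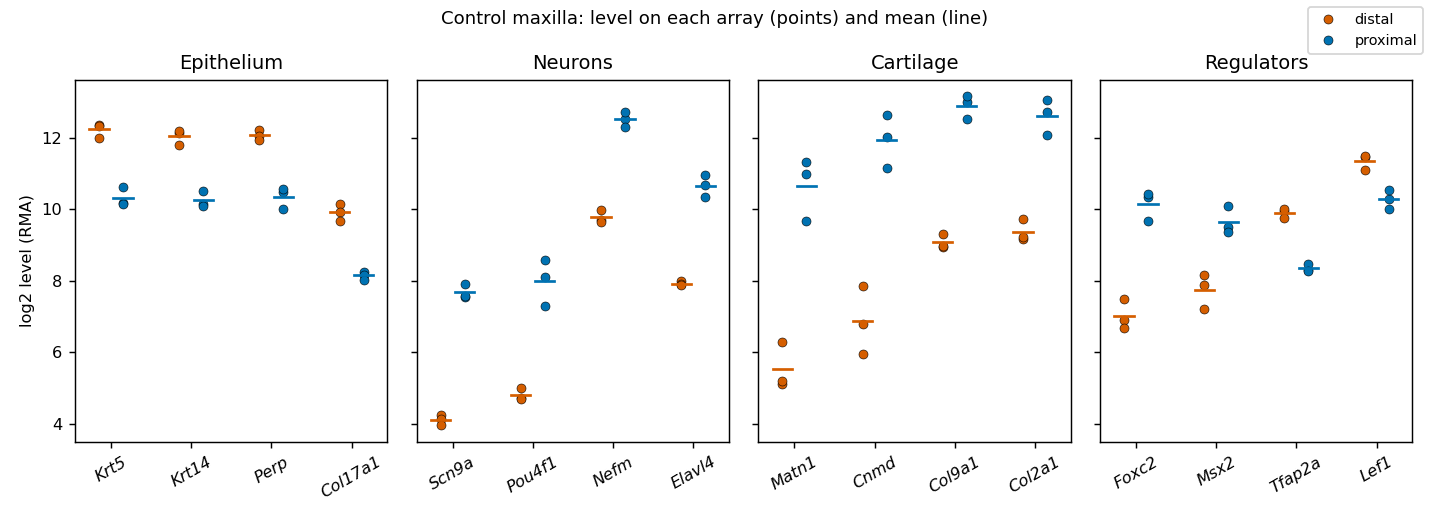
Log2 level on each array (y axis) of 16 genes in the 3 distal and 3 proximal control maxilla arrays, with points for arrays and short lines for means. The ends do not overlap for any of the 16 genes, with epithelial genes higher distally and neuronal and cartilage genes higher proximally. Lack of overlap was a condition for naming the genes with the largest differences, and nearly all called genes had it. It is therefore not separate support for the calls.

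Neuronal genes were higher at the proximal end. Of 19 neuronal genes tested, 15 were called and all 15 were higher proximally, with a list median of -1.797. Without both arrays of replicate 1 the count was 8 and without both of replicate 3 it was 7. With the replicate number as a block it was 17, all higher proximally. The sodium channel gene Scn9a, which acts in pain-sensing neurons, measured 4.26, 4.13 and 3.97 distally and 7.54, 7.59 and 7.91 proximally. The distal values lay among the dim signals of the array, and the 2 ends were separated by more than 3 log2 units (log2 difference -3.56, SE 0.593, adjusted p = 0.000886). Pou4f1, a transcription factor of sensory neurons of the trigeminal ganglion, measured 5.01, 4.73 and 4.71 distally and 8.10, 7.31 and 8.59 proximally, without overlap (log2 difference -3.18, SE 0.516, adjusted p = 0.000705). Its distal values were dim as well.

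Other members of the neuronal list were called in the same direction. Nefm, a neurofilament subunit, measured 9.70, 9.66 and 9.98 distally and 12.52, 12.30 and 12.73 proximally, again without overlap (log2 difference -2.74, adjusted p = 0.00211). Prph, the intermediate filament peripherin of peripheral neurons, differed by -4.72 (SE 0.543, adjusted p = 3.39e-05, 26.3-fold). That value belongs to the brightest Prph probe set alone. Another Prph probe set differed by 0.04, so the probe sets of that gene disagreed. Averaged over all its probe sets, these and others, Prph differed by -1.28 (adjusted p = 0.00012). Outside the list, the 15 largest proximal differences held Stmn3, a stathmin that regulates microtubules in neurons, at -4.81, Sncg, the gamma-synuclein of peripheral sensory neurons, at -4.32, and the neuronal intermediate filament Ina at -3.36.

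The list also held receptors and proteins of RNA binding or release. Ret, a receptor for ligands of the GDNF family, measured 5.79, 6.12 and 5.42 distally and 8.72, 8.83 and 8.74 proximally (log2 difference -2.99, adjusted p = 0.000156). Elavl4, a neuronal RNA-binding protein, differed by -2.74 and Snap25, part of the machinery of vesicle release, by -2.32. With probe sets averaged, Ret differed by -1.59 and Snap25 by -1.33, both still called. The 4 tested neuronal genes that did not pass were Elavl3 (-1.44), Stmn2 (-1.54), Gap43 (-0.36) and Ntrk2 (-0.12). The summed signal of the 19 genes was 12.95 to 13.10 distally and 14.58 to 14.88 proximally. Of 10 Schwann cell genes tested, 2 were called, both higher proximally: Fabp7, a lipid carrier of glial precursors, by 2.10 on the log2 scale and S100b by 1.90. The lineage genes Sox10 (-0.18) and Foxd3 (0.01) did not pass. S100b lost its call without distal replicate 2 (adjusted p = 0.141) or proximal replicate 3 (0.134), and also without distal replicate 1 (0.0689) or proximal replicate 1 (0.0755).

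Cartilage genes gave the 2 largest differences of the whole comparison. Matn1, a matrix protein of cartilage, measured 6.30, 5.13 and 5.20 distally and 10.98, 9.69 and 11.33 proximally. Cnmd, which encodes chondromodulin, measured 7.85, 6.81 and 5.96 distally and 12.01, 11.17 and 12.63 proximally. For both genes proximal replicate 2 was the lowest proximal array, yet it lay more than 3 log2 units above every distal array. The log2 difference was -5.12 for Matn1 (SE 1.16, adjusted p = 0.00997, 34.8-fold) and -5.07 for Cnmd (SE 1.03, adjusted p = 0.00467, 33.5-fold). The distal Matn1 values lay below the array medians of 7.03 to 7.07, among dim signals, so its fold is uncertain. Matn1 lost its call without distal replicate 2 (adjusted p = 0.0504) or proximal replicate 3 (0.0555). It also lost the call without both arrays of replicate 1, 2 or 3 (adjusted p up to 0.131). Cnmd lost its call without both arrays of replicate 3 (0.0997).

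Of 21 cartilage genes tested, 11 were called, all 11 higher proximally, and the list median was -2.34, so large differences missed the threshold too. The SE of a gene pools the spread of all 8 groups. For the cartilage gene Matn4 (SE 0.609) the standard deviation was 0.0869 distally and 0.11 proximally in the control maxilla. It was 1.95 in the distal mutant maxilla. The part of the other groups in the missed calls was not tested. With the replicate number as a block 19 of the 21 were called, again all proximal. The type II and type IX collagen genes, which build the cartilage fibril, were among them. Col9a1 measured 8.96, 8.97 and 9.30 distally and 13.00, 12.52 and 13.16 proximally (log2 difference -3.82, SE 0.656, adjusted p = 0.00119). Col2a1 measured 9.73, 9.17 and 9.23 distally and 12.73, 12.07 and 13.04 proximally (log2 difference -3.24, SE 0.777, adjusted p = 0.0149). Neither gene overlapped between the ends, and the distal levels of both lay above the median of each array, which was 7.03 to 7.07.

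Col9a3 differed by -3.46 and epiphycan, Epyc, a proteoglycan of young cartilage, by -3.45. Mia, a protein secreted by chondrocytes (-4.34), and Cytl1, a cytokine-like protein of chondrocytes (-3.79), lay outside the list and among the 15 largest proximal differences. The transcription factor Sox9 (log2 difference -1.38, adjusted p = 0.13) and its partners Sox5 (-1.37) and Sox6 (-0.58) did not pass. The hypertrophic cartilage gene Col10a1 fell below the filter on dim probe sets. The summed cartilage signal was 12.76 to 12.94 distally and 14.88 to 15.69 proximally. The number of cartilage calls moved with single arrays: it was 8 without distal replicate 1 or distal replicate 3, 5 without distal replicate 2, 6 without proximal replicate 1 and 5 without proximal replicate 3. Without both arrays of replicate 1, 2 or 3 it was 3, 4 or 2. Col2a1 then had adjusted p values of 0.0646 without distal replicate 2, 0.059 without proximal replicate 1 and 0.0753 without proximal replicate 3. Cytl1 was called only with all arrays or without proximal replicate 2, with adjusted p values of 0.0673 to 0.148 when any of the other 5 arrays was left out.

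Promoter sequence was read for genes of these groups. RefSeq held a promoter for 11084 of the genes tested and for 90 of the genes named by rule. The 250 bases before the annotated start were searched on both strands for TATAAA, the core of a TATA box, for AACAATG, a site type bound by SOX proteins, and for AACCGGTT, a site type bound by grainyhead-like proteins. TATAAA was present in 6.87% of all tested promoters, in 8% of those of distal calls and in 9.75% of those of proximal calls. AACAATG was present in 1.8%, 1.71% and 1.81%, in the same order, and AACCGGTT in 22 of all promoters, 1 of 350 distal and 2 of 277 proximal ones. The 5 promoters below held a match and belong to genes named by rule, either leading genes or called genes of the 3 tissue lists. They are not every promoter with a match, since called list members that were not named by rule were not printed. They are from GRCm38.p6 and are written 5′ to 3′ on the strand of the gene, ending at the base before its start, with matches in capitals. Krtdap lies on the plus strand at chr7:30787655-30787904, with TATAAA beginning at position -30 from the start. Col17a1 lies on the minus strand at chr19:47692043-47692292 and holds TATAAA at positions -140 and -91. Prph lies on the plus strand at chr15:99054924-99055173, with TATAAA beginning at position -31. Elavl4, on the minus strand at chr4:110351912-110352161, and Epyc, on the plus strand at chr10:97643818-97644067, hold the reverse complement of AACAATG.
Krtdap: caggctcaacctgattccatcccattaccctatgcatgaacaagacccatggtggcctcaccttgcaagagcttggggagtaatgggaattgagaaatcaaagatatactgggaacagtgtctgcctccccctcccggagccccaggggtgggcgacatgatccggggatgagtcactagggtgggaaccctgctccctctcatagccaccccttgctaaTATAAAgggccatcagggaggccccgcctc
Col17a1: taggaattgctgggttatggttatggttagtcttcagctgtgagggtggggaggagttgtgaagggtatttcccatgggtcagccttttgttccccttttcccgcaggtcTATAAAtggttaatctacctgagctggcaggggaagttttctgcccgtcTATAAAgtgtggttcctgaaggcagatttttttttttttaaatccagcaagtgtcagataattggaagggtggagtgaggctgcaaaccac
Prph: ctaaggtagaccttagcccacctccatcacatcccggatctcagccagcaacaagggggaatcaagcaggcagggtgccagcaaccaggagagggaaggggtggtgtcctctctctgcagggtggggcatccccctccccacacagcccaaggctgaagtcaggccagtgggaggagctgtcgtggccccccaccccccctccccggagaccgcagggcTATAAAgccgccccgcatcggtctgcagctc
Elavl4: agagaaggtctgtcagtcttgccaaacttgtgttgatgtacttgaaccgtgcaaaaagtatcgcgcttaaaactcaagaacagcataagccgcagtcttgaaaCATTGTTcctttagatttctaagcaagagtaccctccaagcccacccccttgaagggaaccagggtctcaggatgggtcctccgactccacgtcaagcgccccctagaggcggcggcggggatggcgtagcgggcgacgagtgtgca
Epyc: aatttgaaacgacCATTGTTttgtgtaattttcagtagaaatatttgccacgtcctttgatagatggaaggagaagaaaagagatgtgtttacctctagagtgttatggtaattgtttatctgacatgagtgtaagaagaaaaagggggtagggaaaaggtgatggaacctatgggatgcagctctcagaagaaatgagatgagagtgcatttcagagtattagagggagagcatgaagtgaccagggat
The epidermal gene Krtdap and the neuronal gene Prph thus shared a TATA sequence at nearly the same distance from the start while differing in opposite directions between the ends. A match describes the letters of the window and is not a measured binding site.

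Among 32 transcription factors that pattern the face, 6 were higher distally and 2 proximally, with a list median of -0.012. Msx2, a homeobox gene of BMP-responsive mesenchyme and epithelium, measured 7.90, 8.17 and 7.21 distally and 9.50, 10.09 and 9.38 proximally. Zic2, a zinc finger gene of the dorsal neural tube and forebrain, measured 4.66, 4.88 and 4.85 distally and 6.60, 7.76 and 6.96 proximally. Both were lower on all distal arrays, and the distal Zic2 values lay among the dim signals. The log2 difference was -1.90 for Msx2 (SE 0.343, adjusted p = 0.00189) and -2.31 for Zic2 (SE 0.402, adjusted p = 0.00134). With probe sets averaged Msx2 differed by -1.11 (adjusted p = 0.00161).

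On the distal side, Tfap2a, which encodes an AP-2 factor of face epithelium and neural crest, measured 9.94, 10.02 and 9.76 distally against 8.29, 8.48 and 8.27 proximally (log2 difference 1.56, SE 0.134, adjusted p = 4.88e-06). Its relative Tfap2b differed by 1.14 and the Iroquois gene Irx5 by 0.91. Irx3 (0.60, adjusted p = 0.0472) and Pou3f3 (0.55, adjusted p = 0.0178) passed with all arrays. Without distal replicate 2, proximal replicate 1 or proximal replicate 3 the list had 3 distal calls. Tfap2b had adjusted p values of 0.0828 without distal replicate 2 and 0.0682 without proximal replicate 1. Irx3 had 0.129 to 0.214 and Pou3f3 0.0735 to 0.112 in the 4 omissions each that ended their calls; for Irx3 these were distal replicates 2 and 3 and proximal replicates 1 and 3, and for Pou3f3 distal replicates 1 and 2 and proximal replicates 1 and 3. The mesenchymal factors Prrx1 (-0.17), Twist1 (0.25), Lhx8 (0.66), Msx1 (0.68) and Alx4 (0.03) did not pass. Lhx8 was 11.84, 11.95 and 10.17 distally and 10.75, 10.51 and 10.69 proximally, so that distal replicate 3 lay below the proximal arrays.

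Of 14 forkhead genes tested, 2 were higher at the proximal end. Foxc2, a regulator of skeletal and vascular mesenchyme, measured 6.89, 6.67 and 7.48 distally and 10.35, 9.67 and 10.44 proximally, which separated the ends fully (log2 difference -3.14, SE 0.435, adjusted p = 0.000169, 8.81-fold). Its close relative Foxc1 differed by -1.56 (adjusted p = 0.0246) and lost its call without distal replicate 2 (0.108), distal replicate 3 (0.0748), proximal replicate 1 (0.101) or proximal replicate 3 (0.0794). The other 12 did not pass, and Foxf2 (0.20) and Foxl2 (0.50) were among them. Of 18 palate regulators, Tbx3 was the 1 called gene (0.82, adjusted p = 0.00131; 0.47 with probe sets averaged, still called), while Osr2 (0.38), Shox2 (0.25), Meox2 (-0.30) and Tbx22 (-0.04) did not pass. Of 11 genes of the mandibular programme, 3 were higher proximally: the LIM homeobox gene Isl1 (-1.80, adjusted p = 0.00247), which the neuronal list also holds, Dlx6 (-1.49, adjusted p = 0.000424) and Dlx5 (-0.96, adjusted p = 0.00306). Hand2 (0.24) did not pass. Cartilage and neuronal signal moved with each of these proximal genes, and epithelial signal with each distal one, at the summed levels given above. Their part in these differences was not tested.

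WNT signalling genes were more often higher distally. Of 34 tested, 14 were higher distally and 2 proximally, with a median of 0.429. Without both arrays of replicate 1 or 3 the distal count was 9. Among ligands, Wnt6 measured 9.90, 10.01 and 10.24 distally against 8.47, 8.79 and 8.29 proximally (log2 difference 1.53, SE 0.211, adjusted p = 0.000158), and Wnt4 measured 10.92, 11.11 and 11.03 against 9.62, 9.89 and 9.56 (log2 difference 1.33, adjusted p = 2.18e-05). Wnt3 differed by 1.43 (adjusted p = 0.0131). All 3 ligands are made in surface epithelia, and for all 3 the distal arrays lay above the proximal ones.

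Among receptors, Fzd10 and Lgr6, which encodes a receptor for R-spondins, were both higher distally by 1.19, whereas Fzd1 (-0.21), Fzd2 (-0.14) and Lgr5 (0.04) did not pass. With probe sets averaged Fzd10 differed by 0.72 and Lgr6 by 0.74, both still called. Lef1, the nuclear partner of beta-catenin and itself a WNT target, measured 11.45, 11.50 and 11.10 distally and 10.29, 10.55 and 10.02 proximally (log2 difference 1.07, SE 0.156, adjusted p = 0.000277). The secreted antagonist Sfrp4 was higher distally by 1.42. In the other direction, Rspo3, which encodes an R-spondin ligand, measured 10.09, 10.20 and 9.92 distally and 11.03, 11.19 and 11 proximally (log2 difference -1.0, adjusted p = 0.000982), and the antagonist Sfrp2 differed by -0.36 (adjusted p = 0.0472). Sfrp2 lost its call with each of the 6 arrays left out in turn (adjusted p 0.0813 to 0.178). Wnt3 lost it without distal replicate 2 (0.06), distal replicate 3 (0.0679) or proximal replicate 3 (0.0583). Epithelial signal moved with the distal WNT genes, and its part was not tested.

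Genes of whisker pad and hair placodes gave 7 distal calls and no proximal call among 16 tested, with a median of 0.70. Besides Lef1 they included Wnt10a, a placode ligand, which measured 9.16 on each distal array and 8.18, 8.24 and 8.22 proximally (log2 difference 0.94, adjusted p = 0.000262). Prdm1, expressed in whisker dermal condensates, differed by 0.73 and Edar, the ectodysplasin receptor, by 0.67. Krt17 (1.36) and the BMP and WNT antagonist Sostdc1 (1.04) were called with all arrays, and both lost the call when any array but distal replicate 3 was left out, with Krt17 at an adjusted p of up to 0.167 and Sostdc1 up to 0.173. Both also missed the threshold in the paired fit of the 6 arrays (0.081 and 0.128), and Krt17 differed by 0.77 with probe sets averaged. Distal replicate 3 was their lowest distal array, with Krt17 at 9.21 beside 10.47 and 10.55, and Sostdc1 at 11.01 beside 12.12 and 12.31. Edar lost its call without distal replicate 2 (0.0598), distal replicate 3 (0.0545) or proximal replicate 3 (0.0521). The count of 7 was 4 without distal replicate 2 or proximal replicate 3.

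Tooth genes overlapped this list. Of 20 tested, 6 were higher distally (Lef1, Sostdc1, Shh, Edaradd, Edar and Wnt10b) and 2 proximally (Islr2 and Sfrp2), with a median of 0.392. Islr2, a membrane protein of axons and other cells, differed by -1.73. Shh, the hedgehog ligand of tooth, whisker and palate epithelium, measured 9.01, 8.33 and 8.22 distally and 8.07, 7.29 and 7.26 proximally. Replicate 1 was the highest at both ends, and the lowest distal value stood just above the highest proximal one (log2 difference 0.98, SE 0.285, adjusted p = 0.0478, and 0.00601 with the replicate block). The Shh call was lost without distal replicate 1 (0.248), distal replicate 2 (0.0829), proximal replicate 2 (0.165) or proximal replicate 3 (0.215), and with probe sets averaged (0.53, adjusted p = 0.104). Of 12 hedgehog genes the other call was Gas1, a co-receptor, at 0.18 (adjusted p = 0.0287), which was lost with each of the 6 arrays left out in turn (0.05 to 0.18) and in the paired fit (0.0749). With probe sets averaged it differed by 0.32 and was called. The tooth mesenchyme genes Barx1 (-0.13), Pax9 (-0.56) and Msx1 (0.68) did not pass. The count of 6 distal tooth genes was 3 without distal replicate 2 or proximal replicate 3.

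**Figure D3:**
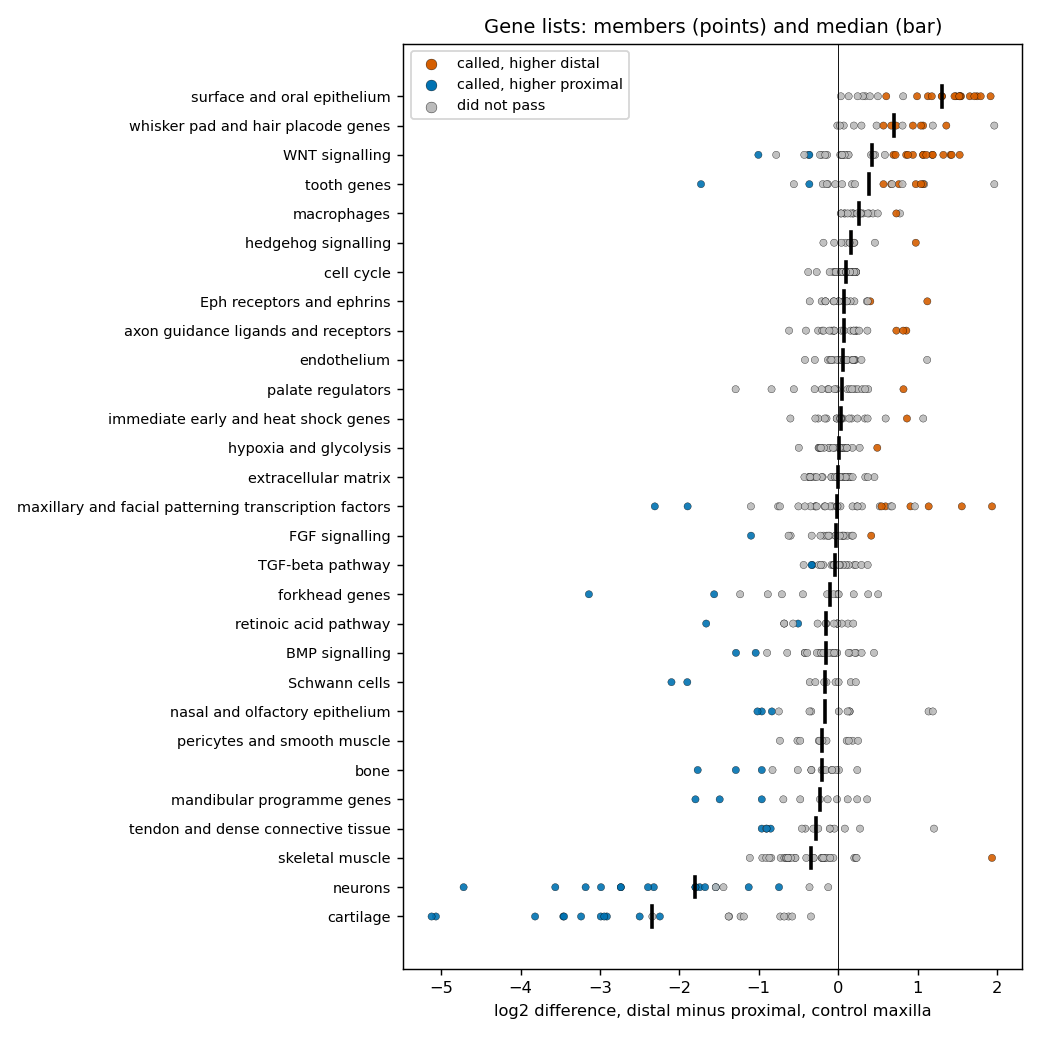
Log2 difference between the ends (x axis) of every tested member of 29 gene lists with at least 10 members tested (y axis), coloured by call, with a bar at each list's median. Epithelium has the highest median at 1.304 and cartilage the lowest at -2.34.

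Each of the other signalling lists held 2 or 3 calls, beside 6.06% of all genes. Of 15 retinoic acid genes 2 were called. Among them, Cyp26a1, the enzyme that degrades retinoic acid, measured 6.59, 7.96 and 7.2 distally and 9.05, 8.41 and 9.27 proximally (log2 difference -1.66, SE 0.307, adjusted p = 0.0022). That call was lost in the paired fit of the 6 arrays (adjusted p = 0.088) and without both arrays of replicate 1 (0.07) or replicate 3 (0.0532). Aldh1a2, the enzyme that makes retinoic acid, differed by -0.50 (adjusted p = 0.0303), so both were higher at the proximal end. With the replicate block 1 retinoic acid gene was higher distally and 6 proximally. Of 24 BMP genes, Gdf5, a ligand of joints, differed by -1.29 and Bmper, a secreted BMP modulator, by -1.04. The block gave 6 proximal BMP calls. Bmp4 (-0.19), Bmp2 (0.15) and Nog (-0.39) did not pass. Aldh1a2, Gdf5 and Bmper each lost the call in 4 of the 6 single-array omissions, which were distal replicates 1 and 2 and proximal replicate 1 for all 3 genes, together with proximal replicate 2 for Aldh1a2 and proximal replicate 3 for Gdf5 and Bmper. Their adjusted p then reached 0.132, 0.203 and 0.0981. Gdf5 had 0.0625 in the paired fit.

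Of 20 FGF genes, Fgfr2, a receptor of epithelium and mesenchyme, was higher distally by 0.42 (adjusted p = 0.00363, and 0.206 when all its probe sets were averaged). Fgf13, a factor that binds sodium channels in neurons, was higher proximally by 1.10 on the log2 scale. Of 20 genes of the TGF-beta pathway, Skil, an inhibitor of SMAD proteins, and Ltbp3, a binding protein of the latent ligand, were both higher proximally, each with a difference of -0.33. Tgfbr1 (-0.05), Tgfb3 (-0.22) and Smad3 (0.06) did not pass. Skil and Ltbp3 both lost their calls when any array but proximal replicate 2 was left out (adjusted p 0.0599 to 0.0877 and 0.0536 to 0.183). Of 18 Eph and ephrin genes, Epha1 (1.12, and 0.47 with probe sets averaged, still called) and Ephb3 (0.41) were higher distally, and 4 were with the block. Of 23 axon guidance genes, Ntn4 (0.86), Sema3e (0.82) and Sema3d (0.73) were higher distally. Single arrays ended the calls of Ephb3 (distal replicates 1 and 2, proximal replicates 1 and 3; adjusted p up to 0.141), Ntn4 (distal replicates 2 and 3, proximal replicates 1 and 3; up to 0.103), Sema3d (each distal replicate and proximal replicate 3; up to 0.146, and 0.0604 in the paired fit) and Sema3e (replicate 3 of either end; up to 0.0819).

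Of 15 bone genes and of 14 tendon genes, 3 each were called, all higher proximally, beside 2.69% of all genes. Ibsp, a bone matrix protein, measured 11.06, 8.13 and 10.45 distally and 12.13, 11.48 and 11.33 proximally, with distal replicate 2 far below the others (log2 difference -1.77, adjusted p = 0.0476). Without that array the difference had an adjusted p of 0.265, and without proximal replicate 1, 2 or 3 it had 0.207, 0.0839 and 0.0873. In the paired fit it had 0.123. Ifitm5, a membrane protein of osteoblasts, differed by -1.29 (adjusted p = 0.0121; 0.0888 without distal replicate 2 and 0.0732 without proximal replicate 1). The osteoblast regulator Sp7 (-0.34) and the collagen gene Col1a1 (-0.19) did not pass. Among tendon genes, Scx, the tendon transcription factor, differed by -0.96, Tnc, a matrix glycoprotein, by -0.90 and Mkx, a homeobox gene of tendon, by -0.85. The Scx call was lost without distal replicate 1 (0.0513), and Scx differed by -0.59 with probe sets averaged.

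Skeletal muscle genes had a median of -0.339, with Pax3 as the 1 call among 35 tested. Tnnc2, a troponin of fast muscle, measured 11.26, 11.48 and 11.78 distally and 12.11, 12.09 and 12.28 proximally. The test was not passed (log2 difference -0.65, SE 0.504, adjusted p = 0.656). The arrays of the ends did not overlap, but that was a condition for naming this gene. The summed muscle signal was 16.06 to 16.48 distally and 16.60 to 16.76 proximally. With the replicate block 5 muscle genes were higher proximally. Of 18 macrophage genes 1 was called, the platelet and macrophage chemokine gene Pf4 (0.73, adjusted p = 0.00878), and with the block 8 were, all distal. Pf4 lost its call without distal replicate 3 (0.0554) or proximal replicate 1 (0.0682), and in the paired fit (0.0707). Of 12 genes of nasal and olfactory epithelium, Ebf2 (-1.02), Dlx5 and Ebf3 (-0.83) were higher proximally. Ebf2 had an adjusted p of 0.0618 and Ebf3 of 0.11 without distal replicate 2, and Ebf3 had 0.0595 without proximal replicate 3 and 0.081 in the paired fit.

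Endothelium, red blood cells, pericytes, extracellular matrix and cell cycle genes gave no call in limma. The matrix collagen Col3a1 measured 14.20, 14.21 and 14.26 distally and 14.20, 14.23 and 14.22 proximally, and the endothelial cadherin Cdh5 differed by 0.04. The 9 cell cycle genes that passed with the replicate block were all higher distally, beside a list median of 0.093. Of 7 Hox genes tested none was called. Hoxd3 measured 7.88, 7.84 and 8.37 distally and 6.27, 6.86 and 5.92 proximally (log2 difference 1.68, SE 0.515, adjusted p = 0.0615), and Hoxd1 differed by 1.56 (adjusted p = 0.275). Both were called with the replicate block, with adjusted p of 0.0107 and 0.00364.

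The mutant maxilla offered arrays of the same 2 ends that share no sample with the control maxilla. Its distal replicate 1 stood apart most in cartilage genes, with a summed cartilage signal of 15.83 on the log2 scale beside 12.89 and 12.71 for distal replicates 2 and 3 and 14.55 to 15.42 proximally. That array also had a summed muscle signal of 14.83 beside 15.72 and 16.16 on distal replicates 2 and 3. Its summed neuronal signal was 13.78 beside 13.06 and 13.01, and its mean log2 level of epithelial genes 10.34 beside 9.74 and 9.64. Between the mutant ends 713 genes were called (5.15%; 2026 with the replicate block). The count was 735 without distal replicate 1, 468 without distal replicate 2 and 466 without proximal replicate 2. Of the 467 genes higher distally in controls, 455 had the same sign in mutants and 209 were called there in the same direction. Of the 372 genes higher proximally, 371 had the same sign and 165 were called. No gene called in controls was called in the opposite direction. The median difference of the distal genes was 0.739 in controls and 0.462 in mutants, and that of the proximal genes -0.853 and -0.654. The genes were chosen in the control arrays and not in the mutant ones. Over all 13850 genes the log2 differences of control and mutant maxilla had a Pearson r of 0.794, across genes that are not independent replicates. Without mutant distal replicate 1, 461 and 369 genes had the same sign, 181 and 223 were called, the medians were 0.457 and -0.764, and r was 0.816.

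Several leading genes of the epithelial and regulatory groups were called in mutants as well. Krtdap differed by 2.49, Krt1 by 2.23, Tfap2a by 1.41, Lef1 by 1.10 and Shh by 1.41 between mutant ends, and Zic2 by -3.37 and Foxc2 by -2.36, all with calls. These 7 calls held with each of the 6 mutant arrays left out. Capns2 (1.35) and Grhl1 (1.08) were called in mutants too. Both lost that call in several of these omissions, among them distal replicate 2 and proximal replicate 2 (adjusted p up to 0.0951 and 0.0895). Gjb6, also among the 15 largest distal differences in controls, was nearly level between mutant ends, with values given at the end. Among cartilage genes, Matn1 gave -3.38 (adjusted p = 0.109), Cnmd -2.45 (adjusted p = 0.222) and Col2a1 -1.91 (adjusted p = 0.201), and none of these was called with all arrays. Matn1 measured 11.41, 5.57 and 5.23 on the 3 distal mutant arrays, so that replicate 1 lay more than 5 log2 units above the others. Of the 21 cartilage genes 1 was called in the mutant maxilla (5 with the replicate block), and the list median was -1.188. Without distal replicate 1, 14 were called, all proximal, with a list median of -2.14, and Matn1 (-5.38, adjusted p = 0.000517), Cnmd (-4.29, adjusted p = 0.00073) and Col2a1 (-3.27, adjusted p = 0.000962) were among them. In controls 11 were called. Of the 19 neuronal genes 5 were called, all proximal (15 with the block), with a median of -1.242. That count was 9 without distal replicate 1 or proximal replicate 1 or 3, 3 without distal replicate 3, and 2 without replicate 2 of either end. The median of the neuronal list was -0.692 without proximal replicate 2, whose summed neuronal signal of 15.15 was the highest of the mutant maxilla, beside 14.23 and 13.86 on the other proximal arrays. Of the 25 epithelial genes 15 were called, all distal, with a median of 0.753. Of the 35 skeletal muscle genes 8 were higher proximally and 1 distally, with a median of -1.039. With the replicate block 28 were higher proximally, and with single mutant arrays left out 2 to 19 were. The difference of effects between genotypes was tested directly. It gave 0 called genes (0%) in limma and 395 at an unadjusted p under 0.05, and 0 in each of the 16 other settings first run, with 193 to 1342 at an unadjusted p under 0.05. With mutant arrays left out in turn it gave 0 calls in 4 omissions and 401 to 703 at an unadjusted p under 0.05. It gave 1 without proximal replicate 1 (Ccnb3) and 7 without proximal replicate 2, among them Sncg (3.44, adjusted p = 0.000251) and Gal (2.07, adjusted p = 0.0129). No cartilage gene was called for the difference between genotypes with any of these arrays left out.

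**Figure D4:**
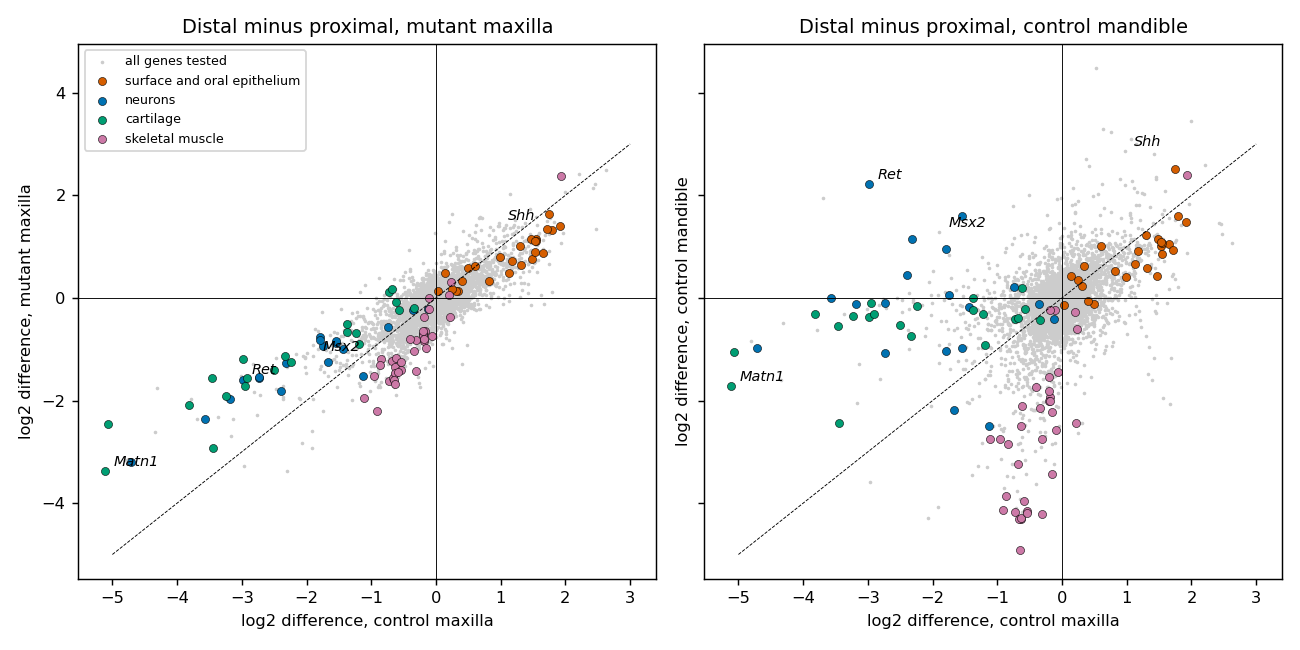
Log2 difference between the ends in the control maxilla (x axis) against that in the mutant maxilla (left) and the control mandible (right) for 13850 genes, with the dashed line marking equal differences. Epithelial genes are on the distal side in all 3 tissues, whereas muscle genes reach -4.91 in the mandible and Ret and Msx2 change sign there.

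The control mandible differed from the maxilla in what separated its ends. Between mandible ends 1844 genes were called (13.3%; 3717 with the replicate block). Of the 839 maxilla calls 391 were also called in the mandible, which was 46.6% of maxilla and 21.2% of mandible calls; 382 had the same sign and 9 the opposite. In the same direction 264 of 467 distal and 118 of 372 proximal genes were called there. Across all genes Pearson r was 0.438. The difference of effects, maxilla minus mandible, was called for 378 genes (2.73%; 1227 with the block), and this count was 204 without distal replicate 2, 180 without distal replicate 3, 172 without proximal replicate 1 and 177 without proximal replicate 3 of the maxilla. Without mandible arrays it was 215 and 154 (distal replicates 1 and 2) and 153 and 167 (proximal replicates 1 and 3).

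Epithelial genes were higher at the distal end of both jaws. The list had 17 distal calls in the maxilla and 13 in the mandible, with medians of 1.304 and 0.857, and none of its 25 genes was called for the difference between jaws (3 with the replicate block, all with the larger distal difference in the maxilla). Krt14 differed by 1.80 and 1.59, and Lef1 by 1.07 and 1.15. Shh differed in both jaws but by different amounts, at 0.98 in the maxilla and 2.86 in the mandible (difference -1.89, SE 0.403, adjusted p = 0.0157, up to 0.0545 without distal replicate 3 or proximal replicate 1 of the maxilla, and up to 0.0613 without proximal replicate 1 or 3 of the mandible). With probe sets averaged the maxilla value of Shh was 0.53.

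Neuronal genes differed between the jaws. Of the 19 tested, 15 were higher proximally in the maxilla and 2 in the mandible (5 with the replicate block), and 10 were called for the difference between jaws, all with the more negative difference in the maxilla. That count of 10 was 5 without maxilla distal replicate 2, 6 without distal replicate 3, and 4 without proximal replicate 1 or 3. It was 6 without mandible distal replicate 3, and 4 without mandible distal replicate 1 or 2 or proximal replicate 1 or 3. Without mandible proximal replicate 2 it was 7, and 1 neuronal gene was called the other way. With the replicate block it was 12, again with 1 called the other way. Ret reversed: in the mandible it measured 8.52, 8.35 and 8.29 distally and 5.51, 6.63 and 6.35 proximally, a difference of 2.22 against -2.99 in the maxilla (difference of effects -5.21, SE 0.574, adjusted p = 0.000198; -2.89 with probe sets averaged, adjusted p = 0.00029). Scn9a differed by 0.01 in the mandible, Pou4f1 by -0.11 and Sncg by -0.49, and all 3 were called for the difference between jaws (-3.57, -3.07 and -3.82). The calls of Scn9a and Pou4f1 were lost without distal replicate 2 or 3 or proximal replicate 1 or 3 of the maxilla (adjusted p up to 0.0727 and 0.0887). They were also lost without distal replicate 1 or 2 or proximal replicate 1 or 3 of the mandible (up to 0.0732 and 0.0834), and Pou4f1 without its distal replicate 3 (0.0519). Cartilage genes had a median of -0.363 in the mandible and 1 call there, of Epyc (3 with the block; 0 without mandible distal replicate 1, where the median was 0.0905). Of them Col9a1 passed the test between jaws (-3.50, adjusted p = 0.0484), though not with any of the 6 maxilla arrays (0.0625 to 0.122) or 6 mandible arrays (0.0512 to 0.155) left out, while Matn1 (-3.40, adjusted p = 0.387) and Cnmd (-4.02, adjusted p = 0.182) did not.

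Among patterning and signalling genes, Msx2 and Rspo3 had opposite signs in the jaws. Msx2 measured 9.64, 9.96 and 9.81 in the distal mandible and 8.36, 8.34 and 8.86 in the proximal mandible, so that it was higher distally there by 1.28, against -1.90 in the maxilla (difference of effects -3.18, SE 0.485, adjusted p = 0.00281; -1.88 with probe sets averaged, adjusted p = 0.00171). The mandible call of Msx2 was lost without mandible distal replicate 2 (0.0662) or proximal replicate 1 (0.0631) or 2 (0.0614). Rspo3 differed by 0.65 in the mandible and -1.0 in the maxilla (difference of effects -1.65, adjusted p = 0.002), and its mandible call was lost without mandible proximal replicate 1 (0.0758) or 3 (0.0505). For Dlx5 and Dlx6, called proximally in both jaws, the differences of effects were 0.01 and -0.10 (adjusted p = 0.999 and 0.988). Skeletal muscle separated the ends of the control mandible, where 31 of 35 genes were higher proximally with a median of -2.57. The median was -0.339 in the control maxilla and -1.039 in the mutant maxilla. Between the control jaws, 21 genes of the list were called for the difference of effects (32 with the block). Tnnc2 measured 6.23, 6.21 and 7.86 in the distal mandible and 11.98, 11.41 and 11.63 in the proximal mandible. All 6 control maxilla arrays lay between 11.26 and 12.28.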

How the data were processed

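RNA of dissected jaws was extracted with an RNeasy kit, biotin-labelled and hybridised to 24 arrays, per the labels' protocols. The deposited values are log2 signals, 1 per probe set and array, which the submitters' processing notes credit to RMA, a method that corrects background, normalizes across arrays by quantiles and summarises probes; its version is not stated in the material used. Quantile normalization forces the same distribution on every array, so a difference is relative to the other genes of that array. The number of arrays, and not a read depth, limits the precision.

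Of 45101 probe sets, 34958 had 1 gene symbol, 932 several and 9211 none in the platform annotation; 34754 of those with 1 symbol matched RefSeq. The brightest probe set represented each of 18194 genes, and 13850 genes above the 40th percentile of an array on at least 3 arrays were tested. Limma (version 3.58.1 with statmod 1.5.0 in R 4.3.3) modelled the 24 arrays together by group means (16 residual degrees of freedom), followed by eBayes and Benjamini-Hochberg adjustment over all genes tested. The SE of a gene in that fit therefore draws on the spread within all 8 groups, mutant and mandible arrays included. Every adjusted p in the text comes from that fit unless another setting is named. The fit was tested on simulated data.

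Deviations from the group means correlated at 0.572, 0.238 and 0.221 between distal and proximal arrays of numbers 1, 2 and 3, each above 0.1. The numbers were therefore taken to pair the ends. Distal array 3 and proximal array 2 also correlated at 0.2, so these values barely tell numbers 2 and 3 apart. The other unequally numbered arrays correlated at -0.385 to 0.032.

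Genes were named by rule: the 15 largest differences each way among called genes whose ends did not overlap, up to 6 called members each way of each of 35 lists (or 3 of the brightest where none was called), the 8 largest each way among genes whose effect differed between jaws or genotypes, and Tgfbr2. Genes whose effect differed were likewise taken only where the control maxilla ends did not overlap. Members of lists named as not passing were chosen after their values were seen. Of 684 symbols in the lists, 582 were tested, 55 fell below the filter and 47 symbols were not found in the annotation used. The comparison and the lists were chosen with earlier results of these data known. Alternatives covered the replicate block, the arrays in the fit, normalization, the filter, probe set choice, eBayes settings and leaving arrays out; omissions of mutant and mandible arrays were added after seeing the data.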

Additional observations from a re-analysis of the deposited data

Results flagged for a closer look

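The difference between the ends itself differed between the control maxilla and the control mandible for 28 of the genes named by rule, by limma's test of the difference of effects (maxilla minus mandible, on the log2 scale). In 17 of the 28 the call held with each of the 12 control arrays left out in turn. Several of the genes were named because this difference was among the largest, so the groups among them partly reflect that choice.

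Muscle contractile genes had differences of effects of 4.26 for Tnnc2, 3.67 for Myh3, 3.66 for Myl1, Mylpf and Tnnc1, 3.63 for Mybph and 3.6 for Myl4. Each was lower distally by over 4 log2 units in the mandible and by 0.54 to 0.66 in the maxilla. The stress protein gene Cryab (1.51) and the smooth muscle actin gene Acta2 (1.49) went the same way. Calb1, a calcium-binding protein gene (3.74), and Hoxd3 (2.86) had values of 1.67 and 1.68 in the maxilla, where neither passed (adjusted p = 0.202 and 0.0615), and negative values in the mandible. Aldh1a2 had 1.23 and Sfrp2 0.87, with larger proximal differences in the mandible.

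Genes with the opposite sign of that test were mostly higher proximally in the maxilla. They were the neuronal genes Ret (-5.21), Stmn3 (-3.97), Sncg (-3.82), Prph (-3.75), Scn9a (-3.57), Snap25 (-3.47), Pou4f1 (-3.07) and Isl1 (-2.75), the cartilage gene Col9a1 (-3.50), Msx2 (-3.18), Zic2 (-2.28), Rspo3 (-1.65), Fabp7 (-1.51) and Mkx (-1.09). Shh (-1.89) was higher distally in both jaws. With probe sets averaged the differences of effects were 1.88 for Myl4, -2.89 for Ret, -1.01 for Prph, -2.05 for Snap25 and -1.88 for Msx2, all still called. Calb1, Col9a1 and Stmn3 lost the call with any 1 of the 6 maxilla arrays left out, at adjusted p values of up to 0.114, 0.122 and 0.114. Fabp7 and Hoxd3 lost it with any but maxilla proximal replicate 2 left out (up to 0.122 and 0.117), and Zic2 with any but maxilla proximal replicate 1 (up to 0.0896). Scn9a, Pou4f1 and Shh lost it in the omissions given above. Cryab lost it without maxilla distal replicate 3 (0.054) and Mkx without maxilla distal replicate 2 (0.0523). The same 11 genes lost the call without at least 1 mandible array. Among them, Fabp7 and Col9a1 lost it with any of the 6 left out (up to 0.0964 and 0.155), and Zic2, Stmn3, Hoxd3 and Calb1 reached 0.101, 0.13, 0.133 and 0.136. Mkx and Cryab lost it without mandible distal replicate 2 or proximal replicate 1 (up to 0.0743 and 0.0605).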

How the results depend on the processing

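How many genes were called varied with the arrays in the fit and with the model. Besides the fit with all arrays, the replicate block gave 2147 maxilla calls (1183 distal, 964 proximal), 3717 mandible, 2026 mutant maxilla and 1227 jaw-difference calls. The paired fit of the 6 maxilla arrays alone, with the replicate block, gave 1658 (850 and 808). Taking arrays that share genotype and number as a random block gave 1707 (963 and 744), 3234, 1601 and 960, in the same order. The 6 maxilla arrays without a block gave 1692 (880 and 812), and the 12 control arrays gave 1926 (1055 and 871), 3604 for the mandible and 1064 for the jaw difference. Leaving out arrays gave 307 to 726 maxilla calls (178 to 404 distal, 129 to 322 proximal), and 69 to 460 for the jaw difference; 466 to 753 were called in the mutant maxilla and 1240 to 1822 in the mandible. The omissions of mutant and mandible arrays were chosen after seeing the data. Repeated quantile normalization, no filter, a stricter filter, the mean of probe sets and trended robust eBayes gave 688 to 862 maxilla calls. The difference between genotypes had 0 to 7 calls with arrays left out, above 0 only without mutant proximal replicate 1 or 2, and 0 in the other settings run. No called result of a named gene changed sign in any setting run, and 62 results for named genes lost the call in at least 1. Between the ends of the maxilla, the replicate block over all arrays ended no call of a named gene, and the paired fit of the 6 maxilla arrays ended 9 (Sostdc1, Krt17, Gas1, Gdf5, Cyp26a1, Sema3d, Ibsp, Ebf3 and Pf4). Beside Hoxd3 and Hoxd1, the block over all arrays also called Calb1 (adjusted p = 0.0144), Barx2 (0.0346), Pdgfrb (0.0381), Cryab (0.0195) and Oc90 (0.0355), and it changed no other call there. With 3 arrays a group, differences near the threshold depend on single arrays. The cause of these shifts was not tested.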

Other observations

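Genes of ranks 16 to 25 by size each way were looked at after their values were seen. They include genes already described above as list members, such as Dsc3, Perp, Esrp2 and Ret. On the distal side, Pof1b, an actin-binding protein of epithelial junctions, was higher by 1.71, Trim29, a gene of basal epithelium, by 1.68 and Lmo1, a LIM-only transcriptional cofactor, by 1.66. Irx4 joined Irx3 and Irx5, with 8.98, 8.97 and 9.34 distally against 7.05, 7.89 and 7.12 proximally (log2 difference 1.74, adjusted p = 0.00334). Cma1, a protease of mast cells, differed by 1.66, with adjusted p values of 0.0798 to 0.197 when any array but proximal replicate 2 was left out.

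On the proximal side, Pirt, a membrane protein of sensory neurons, measured 5.88, 5.93 and 5.92 distally and 9.05, 8.54 and 9.19 proximally (log2 difference -3.02, adjusted p = 6.04e-05). Gal, which encodes the neuropeptide galanin, differed by -2.83 (adjusted p = 2.44e-05). The cartilage matrix genes Acan (-2.99), Matn4 (-2.95) and Hapln1 (-2.91) were higher proximally and are among the 11 called members of the cartilage list above. Acan and Hapln1 lost the call when any array but proximal replicate 2 was left out (adjusted p up to 0.203 and 0.166). Shisa3, an inhibitor of WNT and FGF receptors, differed by -2.97 in the control maxilla, by -3.28 in the mutant maxilla and by -3.58 in the control mandible, with a call in each.

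Gabrp, a GABA receptor subunit gene, measured 9.31, 9.35 and 9.87 distally and 7.54, 8.17 and 7.94 proximally in the control maxilla, a log2 difference of 1.63. In the mutant maxilla it differed by 0.05. Gjb6 had 1.80 in controls and 0.11 in mutants. The difference between genotypes did not pass for either gene (limma, unadjusted p = 0.000659 and 0.00297; adjusted p near 1 for both).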
